A study of Mus musculus with 12 samples.

Results

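Transcripts of 8 chemokine genes were followed in cells of infarcted mouse hearts that are labelled macrophages and divided by CCR2, 6 of them receptors (Ccr2, Cx3cr1, Ccr1, Ccrl2, Cxcr4 and Ackr3) and 2 of them ligands (Cxcl16 and Cxcl12). The genes were taken by symbol from the 53801 genes of the deposited tables, each symbol naming 1 row, and all 8 passed the filter on low counts that left 14964 genes for testing. RNA was sequenced in bulk from hearts of C57BL/6N mice whose left anterior descending coronary artery had been ligated. The 12 libraries form 4 groups of 3: Bhlhe41Cre CCR2low, Bhlhe41Cre CCR2hi, WT CCR2low and WT CCR2hi. Bhlhe41Cre stands for Bhlhe41dTomato-Cre+/-, mice with 1 copy of a dTomato-Cre insertion named for Bhlhe41, a basic helix-loop-helix repressor, and WT mice carry no allele that the labels name. The labels give the sex as male, but in the Bhlhe41Cre samples the entries for cell type, strain and sex stand under the names of other fields. All 4 groups were infarcted, so no uninjured heart enters any comparison. The labels used here do not state the time after ligation, the number of animals behind a library or how the CCR2 gate was set, so the p values measure the spread between these libraries, which may be technical.

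Chemokines are small secreted proteins that guide leukocytes through G protein-coupled receptors. CCR2, which binds CCL2 and its relatives, brings monocytes from blood into injured heart, whereas CX3CR1, the receptor of fractalkine (CX3CL1), marks patrolling monocytes and several kinds of tissue macrophage. CXCR4 signals in response to CXCL12, while ACKR3 binds the same ligand without coupling to G proteins and clears it. CCRL2 also lacks classical signalling and presents chemerin, the product of Rarres2, to neighbouring cells. In cardiac macrophages CCR2 is widely used to separate cells recently derived from monocytes from long-lived resident cells.

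Library totals lay between 17.7 and 20.83 M counts, where M stands for 10 to the power 6. Bhlhe41 had 447, 477 and 226 counts in the CCR2low libraries of Bhlhe41Cre and 160, 198 and 132 in its CCR2hi libraries. In WT the CCR2low libraries held 774, 642 and 671, and the CCR2hi libraries 920, 756 and 531. The counts of sex-linked genes went against the male label in the Bhlhe41Cre libraries. Xist, the RNA that silences an X chromosome in female cells, had 1403 to 3699 counts in each of the 6 Bhlhe41Cre libraries and 0 to 3 in each WT library. The 4 Y-linked genes counted had 105 and 182 counts in the Bhlhe41Cre libraries numbered 3 (CCR2low and CCR2hi), against 709 to 1446 in the other 4 Bhlhe41Cre libraries and 668 to 1741 in WT. Sex composition and genotype therefore cannot be told apart here. Without both libraries numbered 3, 2 of the 40 results for the 8 genes changed their call and none changed sign. The 4 Bhlhe41Cre libraries left still held 1589 to 3699 Xist counts, so leaving these 2 out does not separate sex from genotype. The 17 macrophage identity genes (Cd68, Csf1r, C1qa and others) were all detected in every group, and held 3.31 ± 0.17% of counts in Bhlhe41Cre CCR2low and 0.967 ± 0.14% in the CCR2hi libraries of that genotype, against 3.63 ± 0.15% in CCR2low and 0.440 ± 0.17% in CCR2hi of WT (SD, n = 3 each). The 16 fibroblast markers held 0.342 ± 0.18%, 4.67 ± 0.57%, 0.751 ± 0.19% and 8.15 ± 0.43% of counts in the same 4 groups. All 17 macrophage genes were called higher and all 16 fibroblast genes called lower in CCR2low than in CCR2hi in both genotypes. Fibroblast markers thus held more counts than macrophage markers in every CCR2hi library, which goes against the macrophage label there, and the groups are called below by their gate. In bulk RNA fewer cells of a type and less RNA per cell cannot be told apart.

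Because macrophage transcripts made up so different a share of the gates, each change is given on 2 scales. The first is the usual TMM scale, which sets the bulk of all genes equal between libraries. The second, called the macrophage scale here, divides by the summed counts of the 17 macrophage identity genes. On the TMM scale the median log2 fold change of all genes was 0.01 between the gates in WT and -0.01 between the gates in Bhlhe41Cre. It was -0.18 between genotypes in CCR2low, -0.03 between genotypes in CCR2hi and -0.18 in the interaction. On the macrophage scale these medians were -3.31, -2.0, -0.07, -1.23 and 1.14 in the same order.

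On the TMM scale, 5 of the 8 genes were called higher and 3 lower in CCR2low than in CCR2hi in WT (edgeR adjusted p under 0.05), where 59.8% of all genes tested were called. In Bhlhe41Cre the gates differed in 6 genes, 4 higher and 2 lower in CCR2low, against 54.1% of all genes. Between genotypes in CCR2low, 2 genes were higher and 5 lower in Bhlhe41Cre than in WT, against 43.0% of all genes. Within CCR2hi 2 were higher and 1 lower in Bhlhe41Cre, against 32.1% of all genes. The gate difference itself differed between genotypes (interaction) in 6 genes, all with a lower CCR2low to CCR2hi ratio in Bhlhe41Cre than in WT, against 12.6% of all genes. The median log2 fold changes of the 8 genes were 2.04, 0.66, -0.81, 0.27 and -1.05 in these 5 comparisons, against 0.01, -0.01, -0.18, -0.03 and -0.18 over all genes.

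On the macrophage scale the counts were 0 higher and 7 lower of 8 in CCR2low of WT (95.9% of all genes called), 0 and 7 in CCR2low of Bhlhe41Cre (90.8%), 2 and 3 in Bhlhe41Cre of CCR2low (14.7%), 1 and 6 in Bhlhe41Cre of CCR2hi (74.3%) and 1 and 0 in the interaction (41.7%). The median log2 fold changes of the 8 genes on that scale were -1.23, -1.31, -0.69, -0.84 and 0.30.

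**Figure D1:**
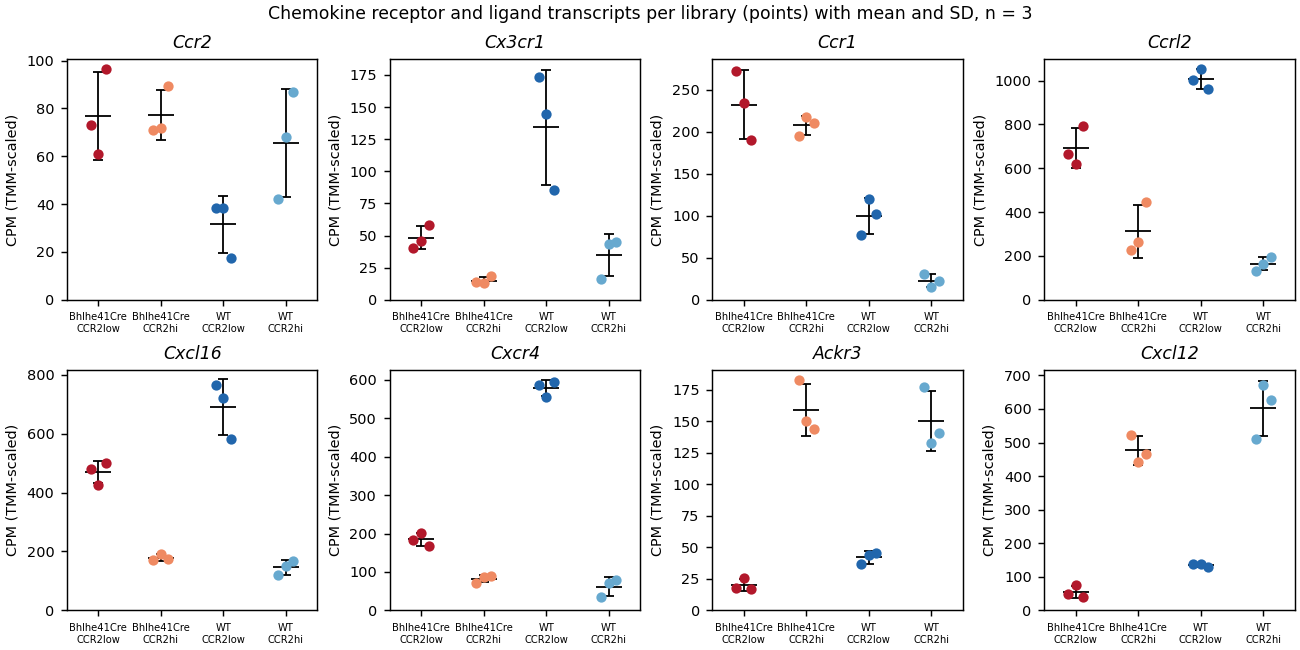
TMM-scaled CPM (counts divided by library size) of the 8 genes in all 12 libraries, with a panel per gene and groups from left to right Bhlhe41Cre CCR2low, Bhlhe41Cre CCR2hi, WT CCR2low and WT CCR2hi; points are libraries, the long bar is the mean and whiskers are the SD (n = 3). Ccr2 is lowest in WT CCR2low (17.65 to 38.5 CPM), while Cxcr4 and Ccrl2 are highest there.

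**Figure D2:**
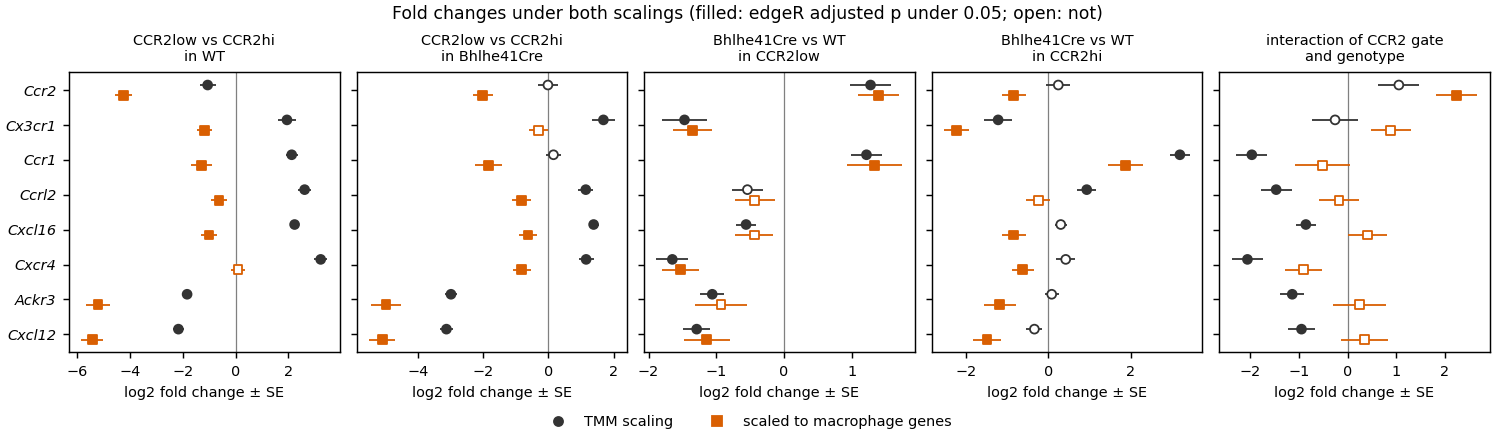
Log2 fold changes ± SE of the 8 genes in the 5 comparisons, from edgeR, on the TMM scale (circles) and on the macrophage scale (squares); filled symbols have an adjusted p under 0.05. Between the gates, Cx3cr1, Ccrl2 and Cxcl16 lie right of 0 on the TMM scale and left of 0 on the macrophage scale, in both genotypes.

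Ccr2 message followed the gate in WT and was nearly level across the gates in Bhlhe41Cre on the TMM scale. In Bhlhe41Cre, Ccr2 stood at 72.9, 60.8 and 96.7 CPM in the CCR2low libraries, against 70.8, 71.7 and 89.4 CPM in the CCR2hi libraries. In WT it stood at 38.5, 38.5 and 17.65 CPM in the CCR2low libraries, against 42.05, 68.0 and 86.7 CPM in the CCR2hi libraries. The gates overlapped in Bhlhe41Cre and did not in WT, where replicate 1 of CCR2hi lay close to the CCR2low libraries. By group mean the order was Bhlhe41Cre CCR2hi, Bhlhe41Cre CCR2low, WT CCR2hi and WT CCR2low, and only the last step separated groups whose ranges did not overlap.

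The log2 fold change of Ccr2 between CCR2low and CCR2hi was -0.01 ± 0.30 in Bhlhe41Cre (SE, edgeR adjusted p = 0.983) and -1.06 ± 0.30 in WT (adjusted p = 0.00825). In CCR2low cells Ccr2 was higher in Bhlhe41Cre than in WT by 1.28 ± 0.30 (adjusted p = 0.00439), a 2.44-fold difference. Its change between genotypes in CCR2hi was 0.24 ± 0.30 (adjusted p = 0.57). The interaction was 1.05 ± 0.42 and missed the threshold (adjusted p = 0.118). Over the 21 alternatives other than the macrophage scale it ran from 0.49 to 1.5, and 20 of them also missed the threshold. The exception was 1.5 (adjusted p = 0.0275) without WT CCR2hi replicate 1. That library had the lowest macrophage share (0.253% of counts, against 0.483% and 0.585% in the other WT CCR2hi libraries), whose part in this was not tested. Ccr2 transcripts have a GC content of 39.4%, at percentile 4.6 of the genes with a value, and offsets for GC content and length ended both Ccr2 calls, with log2 fold changes of -0.53 between gates in WT (adjusted p = 0.295) and 0.59 between genotypes in CCR2low (adjusted p = 0.292).

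Set against macrophage transcripts, Ccr2 was lower in CCR2low than in CCR2hi in both genotypes. The ratio of Ccr2 TPM to the mean TPM of the macrophage identity genes was 1.27%, 1.14% and 1.42% in Bhlhe41Cre CCR2low, against 5.55%, 4.93% and 5.23% in Bhlhe41Cre CCR2hi. In WT the ratio was 0.579%, 0.591% and 0.316% in CCR2low, against 11.0%, 9.13% and 9.42% in CCR2hi. The 4 groups did not overlap in this ratio, and the step between gates was larger in WT. On the macrophage scale the log2 fold change between gates was -2.01 in Bhlhe41Cre (edgeR adjusted p = 9.64e-06) and -4.25 in WT (adjusted p = 2.96e-09) beside shifts of the median gene of -2.0 and -3.31. The interaction on that scale was 2.24 (adjusted p = 0.00503), against a median gene of 1.14. Bhlhe41Cre exceeded WT in CCR2low by 1.40 (adjusted p = 0.00602) and was below WT in CCR2hi by -0.84 (adjusted p = 0.0177) on that scale. With Ptprc (CD45, on all leukocytes), Csf1r or Itgam (CD11b) in place of the list, the log2 ratio between gates stayed negative, from -2.53 to -4.21 in WT and from -1.33 to -1.78 in Bhlhe41Cre. Csf1r and Itgam belong to the list themselves, and only Ptprc lies outside it. With Ptprc the log2 ratio was -2.53 in WT and -1.33 in Bhlhe41Cre, against -4.37 and -2.04 with the list mean.

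**Figure D3:**
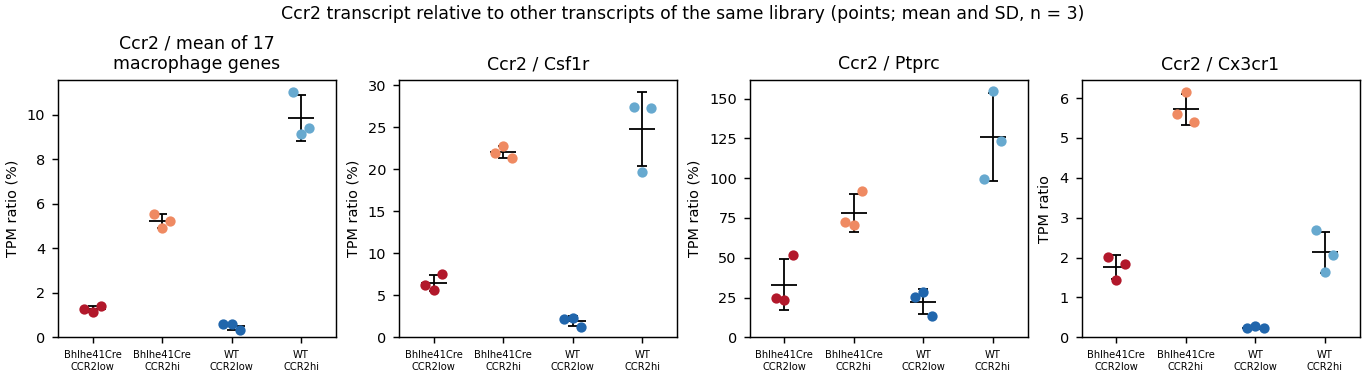
Ccr2 TPM relative to the mean of 17 macrophage identity genes, to Csf1r, to Ptprc (all as %) and to Cx3cr1 (as a ratio) in each library of the 4 groups; points are libraries, long bars means and whiskers SD (n = 3). In each panel the CCR2low libraries lie below the CCR2hi libraries of their genotype, and the WT CCR2low libraries have the lowest mean.

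Cx3cr1 was lower in Bhlhe41Cre than in WT in both gates, whereas Ccr2 was higher in Bhlhe41Cre in CCR2low and missed the threshold in CCR2hi on the TMM scale. It stood at 40.5, 46.1 and 58.4 CPM in Bhlhe41Cre CCR2low, against 13.5, 12.9 and 18.4 CPM in Bhlhe41Cre CCR2hi. The WT libraries had 173.2, 144.2 and 85.6 CPM in CCR2low, against 16.0, 43.5 and 44.8 CPM in CCR2hi. CCR2low lay above CCR2hi without overlap in both genotypes, and WT CCR2low above every other group. By mean, Bhlhe41Cre CCR2low, WT CCR2hi and Bhlhe41Cre CCR2hi followed, each overlapping the next.

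Cx3cr1 was higher in CCR2low than in CCR2hi by 1.69 ± 0.35 in Bhlhe41Cre (edgeR adjusted p = 0.001) and 1.95 ± 0.34 in WT (adjusted p = 0.000265), and the interaction of -0.26 ± 0.48 missed the threshold (adjusted p = 0.754). Both gate differences turned negative on the macrophage scale, at -0.29 (adjusted p = 0.343) and -1.17 (adjusted p = 0.000887). The genotype difference kept its sign on both scales, at -1.47 ± 0.34 in CCR2low (adjusted p = 0.00375; macrophage scale -1.35, adjusted p = 0.00627) and -1.22 ± 0.345 in CCR2hi (adjusted p = 0.0165; macrophage scale -2.23, adjusted p = 5.52e-05). The call in CCR2hi ended, with adjusted p from 0.0502 to 0.0716, without Bhlhe41Cre CCR2hi replicate 1 or 2 or WT CCR2hi replicate 2 or 3. With no filter on low counts the genotype calls in CCR2low and in CCR2hi also ended (adjusted p = 0.0513 and 0.0789).

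The ratio of Ccr2 to Cx3cr1 TPM, which needs no scaling between libraries, sets the receptors against each other in each library. It was 2.02, 1.44 and 1.83 in Bhlhe41Cre CCR2low, against 5.61, 6.16 and 5.41 in Bhlhe41Cre CCR2hi. It was 0.227, 0.277 and 0.222 in WT CCR2low, against 2.69, 1.65 and 2.06 in WT CCR2hi. Neither the gates within a genotype nor the genotypes within a gate overlapped, with log2 differences of -1.71 between gates in Bhlhe41Cre, -3.12 between gates in WT, 2.86 between genotypes in CCR2low and 1.45 between genotypes in CCR2hi. An exact permutation test of 3 against 3 libraries cannot go below p = 0.1, so no such test can pass the threshold for these ratios.

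Ccr1, a receptor that shares the ligands CCL3, CCL5 and others and is found on monocytes and neutrophils as well as macrophages, was higher in Bhlhe41Cre in both gates. It stood at 272.6, 234.0 and 190.3 CPM in Bhlhe41Cre CCR2low, against 77.2, 120.0 and 102.4 CPM in WT CCR2low. In CCR2hi it stood at 194.8, 216.9 and 210.7 CPM in Bhlhe41Cre, against 30.2, 15.4 and 22.8 CPM in WT. The genotypes did not overlap in either gate, whereas the gates overlapped in Bhlhe41Cre and were apart in WT. The log2 fold change between genotypes was 1.22 ± 0.22 in CCR2low (edgeR adjusted p = 0.000921) and 3.19 ± 0.24 in CCR2hi (adjusted p = 2.06e-06), where the difference was 9.09-fold, and both kept sign and call on the macrophage scale (1.34, adjusted p = 0.0342, and 1.87, adjusted p = 0.00112).

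Between the gates Ccr1 differed by 0.16 ± 0.22 in Bhlhe41Cre (edgeR adjusted p = 0.553) and by 2.13 ± 0.23 in WT (adjusted p = 3.58e-06). Scaled to macrophage genes these were -1.82 (adjusted p = 0.000485) and -1.30 (adjusted p = 0.00569). The interaction was -1.97 ± 0.32 on the TMM scale (adjusted p = 0.00285), but -0.52 on the macrophage scale (adjusted p = 0.433). Neutrophil markers moved the same way in CCR2hi: their 12 genes held 0.0833 to 0.131% of counts in Bhlhe41Cre CCR2hi, against 0.00472 to 0.00944% in WT CCR2hi, with 7 of 11 tested genes higher and 0 lower in Bhlhe41Cre and no defining gene at 0 in either group. In CCR2low the neutrophil share was 0.0247 to 0.0266% in Bhlhe41Cre and 0.0175 to 0.0277% in WT. Monocyte markers held 0.153 to 0.199% of counts in Bhlhe41Cre CCR2hi and 0.113 to 0.176% in WT CCR2hi. Of 13 monocyte genes tested, 9 were higher and 1 lower in Bhlhe41Cre CCR2hi than in WT CCR2hi. In CCR2low 4 were higher and 4 lower in Bhlhe41Cre than in WT. Over all genes 16.2% were higher and 15.9% lower between genotypes in CCR2hi, and 16.4% and 26.7% in CCR2low. The part of these cells in the Ccr1 difference was not tested.

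Ccrl2 was the most abundant of the 8 genes per length in 3 of the 4 groups. Its mean TPM was 597.8 ± 3.8 in Bhlhe41Cre CCR2low, 314.5 ± 115.7 in Bhlhe41Cre CCR2hi, 917.0 ± 52.8 in CCR2low of WT and 203.2 ± 42.7 in CCR2hi of WT (SD, n = 3 each), and only in WT CCR2hi did another of the 8, Cxcl12 at 352.7 ± 27.6 TPM, exceed it. In CPM, Ccrl2 stood at 664.4, 618.4 and 794.7 in Bhlhe41Cre CCR2low, against 224.9, 262.4 and 447.4 in Bhlhe41Cre CCR2hi. The WT values were 1004, 1052 and 961.4 CPM in CCR2low, against 133.1, 164.7 and 193.8 CPM in CCR2hi. No 2 neighbouring groups overlapped, and the gates lay nearer each other in Bhlhe41Cre.

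Ccrl2 was 2.22-fold higher in CCR2low than in CCR2hi in Bhlhe41Cre (log2 1.15 ± 0.23, edgeR adjusted p = 0.000694) and 6.14-fold higher in WT (2.62 ± 0.24, adjusted p = 7.37e-07). The macrophage scale turned both to the other side (-0.81, adjusted p = 0.0143, and -0.63, adjusted p = 0.0466). Its interaction was -1.47 ± 0.32 (adjusted p = 0.0118), -0.92 (adjusted p = 0.0376) without Bhlhe41Cre CCR2hi replicate 3, and -0.18 (adjusted p = 0.712) on the macrophage scale. In CCR2hi Ccrl2 was higher in Bhlhe41Cre by 0.93 ± 0.225 (adjusted p = 0.00721), or by 0.57 (adjusted p = 0.0306) without the same library, and on the macrophage scale it was -0.25 (adjusted p = 0.426). In CCR2low the genotype difference was -0.54 ± 0.22 (adjusted p = 0.067), which became -0.56 (adjusted p = 0.0303) with replicate number as a block and -0.65 (adjusted p = 0.00785) without both Bhlhe41Cre libraries numbered 3. That block rests on a shared number only. Same-numbered libraries did not deviate together between genotypes in CCR2low (r over genes of residuals -0.21, -0.06 and -0.26).

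Cxcl16, a membrane-bound chemokine that attracts CXCR6-bearing lymphocytes and also acts as a scavenger receptor, had the same order of groups as Ccrl2. It stood at 478.8, 427.0 and 500.6 CPM in Bhlhe41Cre CCR2low, against 171.2, 191.8 and 174.9 CPM in Bhlhe41Cre CCR2hi. It stood at 764.2, 721.6 and 582.4 CPM in WT CCR2low, against 119.4, 150.3 and 167.1 CPM in WT CCR2hi. The 4 groups did not overlap, although the gap between Bhlhe41Cre CCR2hi and WT CCR2hi was narrow. CCR2low exceeded CCR2hi by 1.39 ± 0.15 in Bhlhe41Cre (edgeR adjusted p = 4.54e-06) and 2.24 ± 0.15 in WT (adjusted p = 1.2e-07), against -0.62 (adjusted p = 0.0486) and -1.01 (adjusted p = 0.00249) on the macrophage scale.

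Between genotypes Cxcl16 was lower in Bhlhe41Cre CCR2low by -0.56 ± 0.15 (edgeR adjusted p = 0.00872). The value moved to -0.32 with offsets for GC content and length (adjusted p = 0.0665), to -0.36 without any of the 3 Bhlhe41Cre CCR2hi libraries in turn (adjusted p = 0.0721, 0.0717 and 0.0716) or without WT CCR2hi replicate 1 (adjusted p = 0.0236), and to -0.44 on the macrophage scale (adjusted p = 0.326). Leaving out any of these 4 libraries also brought the median of all genes in this comparison to 0.01, against -0.18 with all 12. The interaction of -0.86 ± 0.21 (adjusted p = 0.0201) fell short of the threshold in 8 of the 21 alternatives other than the macrophage scale, among them -0.52 (adjusted p = 0.0773) without WT CCR2hi replicate 1, and on the macrophage scale it was 0.40 (adjusted p = 0.397). In CCR2hi the genotype difference was 0.30 ± 0.15 (adjusted p = 0.137).

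On the TMM scale Cxcl12 and its receptors parted along the gates: Cxcr4 was highest in CCR2low, and Cxcl12 and Ackr3 in CCR2hi. Cxcr4 stood at 183.0, 202.6 and 167.8 CPM in Bhlhe41Cre CCR2low, against 72.3, 86.2 and 88.6 CPM in Bhlhe41Cre CCR2hi. In WT it stood at 585.6, 555.8 and 593.7 CPM in CCR2low, against 34.4, 71.0 and 79.9 CPM in CCR2hi. WT CCR2low stood clear above all other groups, followed by Bhlhe41Cre CCR2low, and the CCR2hi groups overlapped. Cxcr4 was 2.24-fold higher in CCR2low than in CCR2hi in Bhlhe41Cre (log2 1.16 ± 0.23, edgeR adjusted p = 0.000798) and 9.36-fold higher in WT (3.23 ± 0.25, adjusted p = 2.35e-07).

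Cxcr4 was lower in Bhlhe41Cre than in WT in CCR2low on both scales, by -1.65 ± 0.23 (edgeR adjusted p = 0.000188) and by -1.53 on the macrophage scale (adjusted p = 0.00205). In CCR2hi its difference was 0.42 ± 0.23 (adjusted p = 0.185), against -0.62 (adjusted p = 0.0454) on the macrophage scale. The interaction was -2.06 ± 0.33 (adjusted p = 0.00265) and -0.90 (adjusted p = 0.0604) on the macrophage scale. On that scale the gate difference in WT was 0.09 (adjusted p = 0.74), the only gate difference of the 8 genes not below 0, and that in Bhlhe41Cre was -0.81 (adjusted p = 0.00879).

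Cxcl12 stood at 47.9, 76.1 and 40.3 CPM in Bhlhe41Cre CCR2low, against 523.2, 441.3 and 465.2 CPM in Bhlhe41Cre CCR2hi. It stood at 136.8, 136.7 and 127.7 CPM in WT CCR2low, against 511.4, 670.3 and 626.3 CPM in WT CCR2hi. The gates lay far apart in both genotypes, and within CCR2low the genotypes did too. The fold was 8.70 lower in CCR2low in Bhlhe41Cre (log2 -3.12 ± 0.21, edgeR adjusted p = 1.61e-07) and 4.51 lower in WT (-2.17 ± 0.20, adjusted p = 9.94e-07), and both kept their sign on the macrophage scale (-5.09 and -5.44). In CCR2low Cxcl12 was lower in Bhlhe41Cre by -1.29 ± 0.20 (adjusted p = 0.000332; macrophage scale -1.14, adjusted p = 0.0323), and in CCR2hi its difference was -0.34 ± 0.20 (adjusted p = 0.201; macrophage scale -1.49, adjusted p = 0.00142).

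The interaction of Cxcl12, -0.95 ± 0.28 (edgeR adjusted p = 0.0408), lost its call most often among the interactions of the 8 genes. Of the 21 alternatives other than the macrophage scale, 14 missed the threshold while keeping the sign, including -0.59 (adjusted p = 0.115) without Bhlhe41Cre CCR2low replicate 3. It was 0.35 (adjusted p = 0.533) on the macrophage scale.

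Ackr3 stood at 17.4, 25.6 and 17.3 CPM in Bhlhe41Cre CCR2low, against 182.4, 150.0 and 144.1 CPM in Bhlhe41Cre CCR2hi. It stood at 36.4, 43.9 and 45.6 CPM in WT CCR2low, against 176.8, 132.9 and 140.6 CPM in WT CCR2hi. The CCR2hi groups overlapped each other and lay above both CCR2low groups, which were apart. Ackr3 was lower in CCR2low by -2.98 ± 0.19 in Bhlhe41Cre (edgeR adjusted p = 1.1e-07) and -1.84 ± 0.18 in WT (adjusted p = 1.39e-06), with -4.97 and -5.22 on the macrophage scale. In CCR2low it was lower in Bhlhe41Cre by -1.06 ± 0.18 (adjusted p = 0.000555), a call that ended on the macrophage scale (-0.93, adjusted p = 0.115). Its difference in CCR2hi was 0.08 ± 0.17 (adjusted p = 0.749) on the TMM scale and -1.18 (adjusted p = 0.0119) on the macrophage scale. The interaction of -1.14 ± 0.25 (adjusted p = 0.0122) was -0.82 (adjusted p = 0.0705) without Bhlhe41Cre CCR2hi replicate 1 and 0.25 (adjusted p = 0.699) on the macrophage scale.

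Between the gates, Cxcl12 and Ackr3 were lower in CCR2low, as were the fibroblast markers. Between genotypes in CCR2hi the fibroblast share was 4.67% in Bhlhe41Cre and 8.15% in WT, while neither gene passed the threshold on the TMM scale. Cxcl12 TPM was 24.45 ± 2.1% of the mean fibroblast marker TPM in Bhlhe41Cre CCR2low, 21.5 ± 2.0% in Bhlhe41Cre CCR2hi, 27.9 ± 4.3% in WT CCR2low and 13.7 ± 2.0% in WT CCR2hi (SD, n = 3 each). Ackr3 was at 11.2 ± 2.8%, 7.02 ± 0.41%, 10.3 ± 4.0% and 3.64 ± 0.56% in the same groups. Relative to fibroblast transcripts, the mean of either gene was higher in CCR2low than in CCR2hi in both genotypes, whereas on the TMM scale it was lower. For Cxcl12 in Bhlhe41Cre the gates overlapped in this ratio (22.02 to 26.03% in CCR2low, 20.14 to 23.71% in CCR2hi). They did not overlap for Cxcl12 in WT or for Ackr3 in either genotype. Endothelial markers, whose cells also use both genes, held 0.0655 ± 0.026%, 0.329 ± 0.045%, 0.0908 ± 0.015% and 0.288 ± 0.072% of counts in the same groups, with none of their 12 genes at 0. The part of fibroblast and endothelial RNA in the Cxcl12 and Ackr3 differences was not tested.

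**Figure D4:**
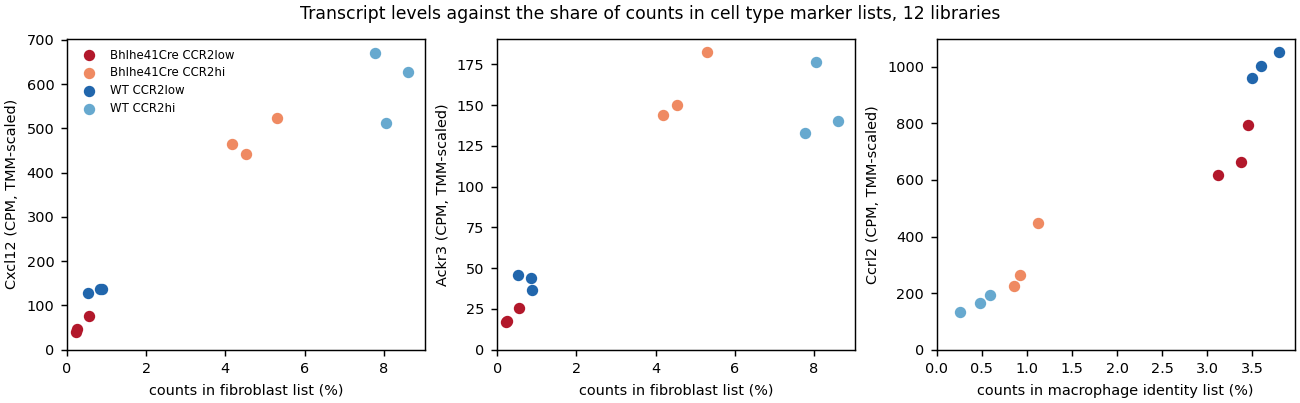
CPM of Cxcl12 and Ackr3 against the share of counts in 16 fibroblast markers, and CPM of Ccrl2 against the share in 17 macrophage identity genes, with 1 point per library in the colours of the 4 groups. CCR2low libraries hold 0.227 to 0.876% fibroblast counts and CCR2hi libraries 4.18 to 8.62%, and Cxcl12 and Ackr3 split the same way.

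The TPM ratio of Cxcr4 to Cxcl12 gave the contrast within a library. It was 10.2, 6.68 and 9.14 in Bhlhe41Cre CCR2low, against 0.284, 0.426 and 0.399 in Bhlhe41Cre CCR2hi. It was 9.13, 8.88 and 11.8 in WT CCR2low, against 0.138, 0.229 and 0.266 in WT CCR2hi. The gates were 23.4-fold apart in Bhlhe41Cre and 48.5-fold apart in WT, while the genotypes overlapped in CCR2low and not in CCR2hi. The Cxcl12 to Ackr3 ratio varied less, from 1.87 to 4.50 over the 12 libraries.

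The promoters of the CXCL12 axis are shown because Cxcl12 and Ackr3 were lower and Cxcr4 higher in CCR2low than in CCR2hi on the TMM scale, although all 3 were lower in Bhlhe41Cre than in WT in CCR2low, and that of Ccr1 because it alone was higher in Bhlhe41Cre in both gates on both scales. They are the 250 bases before the annotated start, from RefSeq on GRCm38.p6, written 5′ to 3′ on the gene's strand. Capitals mark matches on either strand to the E-box bound by BHLHE41 and BHLHE40 (CACGTG), the hypoxia response core (ACGTG, which lies within that E-box), the PU.1 core (GAGGAA), a site of NF-kB, the TATA box (TATAAA) and the GC box (GGGCGG). Of the 8 genes 7 had an entry, and Cxcl16 is the other.
Cxcl12 (chr6:117168285-117168534, + strand): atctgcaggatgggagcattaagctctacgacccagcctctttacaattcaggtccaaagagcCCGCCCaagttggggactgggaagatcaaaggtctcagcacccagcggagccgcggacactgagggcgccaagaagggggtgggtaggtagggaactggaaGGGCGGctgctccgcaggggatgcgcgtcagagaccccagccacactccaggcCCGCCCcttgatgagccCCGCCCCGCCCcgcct
Ackr3 (chr1:90203730-90203979, + strand): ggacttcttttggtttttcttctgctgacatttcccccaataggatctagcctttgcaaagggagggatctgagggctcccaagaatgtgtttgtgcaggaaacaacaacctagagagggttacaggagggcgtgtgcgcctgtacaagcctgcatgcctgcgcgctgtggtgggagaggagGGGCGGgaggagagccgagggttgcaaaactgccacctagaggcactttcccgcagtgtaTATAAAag
Cxcr4 (chr1:128592300-128592549, - strand): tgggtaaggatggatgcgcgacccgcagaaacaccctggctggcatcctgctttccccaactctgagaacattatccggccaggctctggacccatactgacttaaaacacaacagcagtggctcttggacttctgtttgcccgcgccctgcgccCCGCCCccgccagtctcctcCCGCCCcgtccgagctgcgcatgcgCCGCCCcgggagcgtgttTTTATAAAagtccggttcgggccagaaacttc
Ccr1 (chr9:123968693-123968942, - strand): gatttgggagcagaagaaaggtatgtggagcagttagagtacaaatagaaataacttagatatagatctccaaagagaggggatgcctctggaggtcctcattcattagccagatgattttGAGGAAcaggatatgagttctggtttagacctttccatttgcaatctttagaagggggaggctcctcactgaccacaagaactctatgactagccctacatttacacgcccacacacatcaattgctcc
The Cxcl12 window was the richest in G and C (64.4%) and held 5 GC boxes, at positions -187, -86, -33, -16 and -11 from the start. Cxcr4 (61.2%) held 3 GC boxes and a TATA box that read on both strands at overlapping positions (-32 and -30), and Ackr3 (54.0%) held a GC box at -68 and a TATA box at -8. The Ccr1 window (43.6%) held a PU.1 core at -129 and no other searched motif. None of the windows of the 7 genes held the E-box, which 6.02% of 32851 promoter windows did. The other motifs occurred in 16.6% (ACGTG), 23.3% (GAGGAA), 4.11% (NF-kB), 12.4% (TATAAA) and 32.7% (GGGCGG) of them. A match is a description of the letters, and the factors were not measured here.

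Of 20 other chemokine receptors listed, 13 passed the filter on low counts. Between the gates 4 were higher and 6 lower in CCR2low in Bhlhe41Cre, and 5 higher and 2 lower in WT. Between genotypes 3 were higher and 2 lower in Bhlhe41Cre CCR2low, and 9 higher and 2 lower in Bhlhe41Cre CCR2hi. Over all genes 24.9% were higher and 29.1% lower in CCR2low in Bhlhe41Cre, and 29.8% and 30.0% in WT, while between genotypes 16.4% were higher and 26.7% lower in Bhlhe41Cre CCR2low and 16.2% and 15.9% in Bhlhe41Cre CCR2hi. After macrophage scaling the gate counts became 0 higher and 10 lower in Bhlhe41Cre and 1 and 11 in WT, and the CCR2hi genotype count 3 and 4, where 90.8%, 95.9% and 74.3% of all genes were called, nearly all of them lower.

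Xcr1, a receptor of cross-presenting dendritic cells, was higher in Bhlhe41Cre on both scales, by 3.19 ± 0.375 in CCR2low (edgeR adjusted p = 7.07e-05; macrophage scale 3.32) and 3.26 ± 0.40 in CCR2hi (adjusted p = 7.8e-05; macrophage scale 2.10), at means of 4.43 and 2.99 CPM in Bhlhe41Cre, against 0.479 and 0.304 CPM in WT. The 10 dendritic cell markers held 0.00699% of counts in Bhlhe41Cre CCR2low against 0.00753% in WT CCR2low, and 0.0389% in Bhlhe41Cre CCR2hi against 0.0302% in WT CCR2hi. Of these markers, which include Xcr1, 1 was higher (Xcr1 itself) and 2 lower in Bhlhe41Cre CCR2low. In Bhlhe41Cre CCR2hi 3 were higher, Xcr1 among them, and 0 lower. Over all genes 16.4% were higher and 26.7% lower in Bhlhe41Cre CCR2low, and 16.2% and 15.9% in Bhlhe41Cre CCR2hi. Ccr3, best known from eosinophils, was higher in Bhlhe41Cre than in WT in CCR2low by 2.51 ± 0.40 (adjusted p = 0.000393; macrophage scale 2.64) at 4.76 ± 1.2 CPM in Bhlhe41Cre and 0.833 ± 0.48 CPM in WT. Cxcr2, a neutrophil receptor, averaged 10.48 ± 3.8 CPM in Bhlhe41Cre CCR2hi and between 1.41 and 1.86 CPM in the other 3 groups, with an interaction of -3.25 ± 0.71 (adjusted p = 0.0122; macrophage scale -1.76, adjusted p = 0.0805). Ackr4, an atypical receptor of stromal cells, was lower in CCR2low by -3.71 ± 0.31 in Bhlhe41Cre (adjusted p = 5.07e-07) and -4.29 ± 0.30 in WT (adjusted p = 1.23e-07), as were the fibroblast markers.

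A list of 15 ligands of the 6 receptors first described (Ccl2, Cx3cl1, Rarres2 and others) was tested in full. In Bhlhe41Cre 8 were higher and 5 lower in CCR2low, and in WT 9 and 4, beside 54.1% and 59.8% of all genes called. Between genotypes 4 were higher and 2 lower in Bhlhe41Cre CCR2low, and 10 higher and 1 lower in Bhlhe41Cre CCR2hi. Over all genes 43.0% and 32.1% were called in these 2 comparisons. Macrophage scaling turned the gate counts to 1 higher and 10 lower in Bhlhe41Cre and 1 and 11 in WT. It turned the CCR2hi genotype count to 3 and 4. On that scale 90.8%, 95.9% and 74.3% of all genes were called in these comparisons, nearly all of them lower. Ccl3, a ligand of CCR1, averaged 184.2 ± 48.7 CPM in Bhlhe41Cre CCR2hi, against 35.9 ± 17.3 CPM in WT CCR2hi (log2 2.36 ± 0.29, edgeR adjusted p = 7.2e-05; macrophage scale 1.30, adjusted p = 0.000838). Ccl5 was higher in Bhlhe41Cre CCR2low, at 41.65 ± 8.0 CPM against 8.50 ± 1.5 CPM in WT CCR2low (2.29 ± 0.27, adjusted p = 7.02e-05; macrophage scale 2.43, adjusted p = 0.00195).

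Ccl7, a ligand of CCR2, was higher in Bhlhe41Cre CCR2low (log2 0.96 ± 0.215, edgeR adjusted p = 0.00319), a call that ended on the macrophage scale (1.10, adjusted p = 0.0596). Ccl8, a chemokine of tissue macrophages, was higher in CCR2low on both scales in both genotypes, by 2.73 ± 0.37 in Bhlhe41Cre (adjusted p = 3.45e-05; macrophage scale 0.73, adjusted p = 0.0258) and 4.14 ± 0.40 in WT (adjusted p = 1.36e-06; macrophage scale 1.04, adjusted p = 0.00285). Cx3cl1, the only ligand of CX3CR1 listed, was lower in CCR2low than in CCR2hi in both genotypes. It averaged 7.19 ± 2.3 CPM in Bhlhe41Cre CCR2low and 60.9 ± 7.7 CPM in Bhlhe41Cre CCR2hi, against 20.2 ± 4.3 CPM in CCR2low and 127.3 ± 25.3 CPM in CCR2hi of WT. Rarres2, which encodes the chemerin that CCRL2 presents, averaged 7.20 ± 0.86, 82.8 ± 4.8, 30.8 ± 3.2 and 89.3 ± 4.5 CPM in the same order of groups, and was lower in Bhlhe41Cre CCR2low on both scales (-2.10 ± 0.13, adjusted p = 1.95e-06; macrophage scale -1.98, adjusted p = 0.00197). Ligand and receptor thus had opposite gates for Cx3cl1 and Cx3cr1 and for Rarres2 and Ccrl2 on the TMM scale.

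Of 26 genes for G proteins, kinases, arrestins and regulators, all tested, 19 were higher and 1 lower in CCR2low in Bhlhe41Cre, and 23 and 2 in WT, against 24.9% higher and 29.1% lower over all genes in Bhlhe41Cre and 29.8% and 30.0% in WT. Between genotypes 2 were higher and 6 lower in Bhlhe41Cre CCR2low, and 9 higher and 1 lower in Bhlhe41Cre CCR2hi. Of the interactions 1 was above and 9 were below 0. Over all genes the shares were 16.4% and 26.7% in CCR2low, 16.2% and 15.9% in CCR2hi, and 4.74% and 7.85% in the interaction. The gate counts turned to 0 higher and 17 lower in Bhlhe41Cre and to 0 and 18 in WT on the macrophage scale, where 90.8% and 95.9% of all genes were called. The genotype counts on that scale were 1 higher and 2 lower in CCR2low and 0 and 15 in CCR2hi. The interactions were 5 above and 0 below 0. Beside these counts, 14.7%, 74.3% and 41.7% of all genes were called. Pik3r5, a regulatory subunit of the PI3-kinase that G protein βγ activates, was higher in CCR2low by 2.09 ± 0.15 in Bhlhe41Cre (edgeR adjusted p = 2.13e-07) and 3.13 ± 0.16 in WT (adjusted p = 2.3e-08), against 0.10 (adjusted p = 0.786) and -0.24 (adjusted p = 0.518) on the macrophage scale. Dock2, an activator of Rac in migrating leukocytes, showed 2.12 ± 0.18 in Bhlhe41Cre (adjusted p = 5.81e-07) and 2.94 ± 0.185 in WT (adjusted p = 7.17e-08), against 0.14 and -0.27 on the macrophage scale. Arrb1, which uncouples activated receptors, was lower in Bhlhe41Cre CCR2low (-0.77 ± 0.13, adjusted p = 0.000555), though not past the threshold on the macrophage scale (-0.65, adjusted p = 0.152).

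Of 7 genes for proteases that shed or cleave chemokines, 3 were higher and 3 lower in CCR2low in Bhlhe41Cre, and 2 and 3 in WT, beside 54.1% and 59.8% of all genes called. The macrophage scale gave 1 higher and 6 lower in both genotypes, beside 90.8% and 95.9% of all genes called. Mmp12, the macrophage elastase, was higher in CCR2low on both scales, by 3.13 ± 0.23 in Bhlhe41Cre (edgeR adjusted p = 2.32e-07; macrophage scale 1.15, adjusted p = 0.000808) and 3.92 ± 0.24 in WT (adjusted p = 5.74e-08; macrophage scale 0.74, adjusted p = 0.0164). Mmp2, a gelatinase of stromal cells that cleaves CXCL12, was lower in CCR2low in both genotypes (-3.54 ± 0.30 in Bhlhe41Cre, adjusted p = 6.37e-07, and -3.41 ± 0.30 in WT, adjusted p = 5.85e-07), and in both gates and on both scales its level was below WT in Bhlhe41Cre. Adam10, the sheddase of CXCL16 and CX3CL1, averaged 151.1 ± 15.3 CPM in Bhlhe41Cre CCR2low and 97.5 ± 7.5 CPM in Bhlhe41Cre CCR2hi, against 100.2 ± 20.7 CPM in CCR2low and 103.4 ± 8.2 CPM in CCR2hi of WT. Its genotype difference in CCR2low was 0.59 ± 0.15 (edgeR adjusted p = 0.00622), a call that ended on the macrophage scale (0.70, adjusted p = 0.185).

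For each of the 8 genes, the genes with the most similar pattern were sought among 10544 genes by the root mean square difference of centred log2 CPM over the 12 libraries, as a description. Ccr2 had no close match: the nearest was Vdr, the vitamin D receptor, at 0.356, followed by Manf (0.394) and Isg15 (0.416), where the spread of Ccr2 itself was 0.674. Vdr averaged 10.15, 10.4, 3.73 and 10.1 CPM in Bhlhe41Cre CCR2low, Bhlhe41Cre CCR2hi, WT CCR2low and WT CCR2hi. Ccr1 was followed by Cxcl2 (0.266), a neutrophil-attracting chemokine at 4396, 2670, 1772 and 385.8 CPM in the same groups, and then by Slpi (0.337). Among the matches of Cxcl12 were Plpp1 (0.125) and Mmp17 (0.133), and Cxcl16 was nearest to Il10rb (0.133), a subunit of the IL-10 receptor. Ccrl2 lay nearest to Csf2ra (0.159), a chain of the GM-CSF receptor, Cx3cr1 to Cd72 (0.269), Cxcr4 to Cnr2 (0.225), the peripheral cannabinoid receptor, and Ackr3 to Nsg1 (0.168).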

How the data were processed

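RNA from 12 libraries was sequenced in bulk. Per the submitters' processing notes, CASAVA 1.8, STAR 2.4.0j and RSEM were used with build mm10; for RSEM's version, the annotation and strandedness, nothing was given in the labels or notes. The authors deposited expected counts from RSEM, written as whole numbers, and TPM values (a measure that divides by transcript length). Columns named KD were matched to Bhlhe41Cre libraries by gate and replicate number; groups follow the sample titles.

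Expected counts were tested with edgeR 4.0.16 (R 4.3.3; TMM scaling, filterByExpr, robust quasi-likelihood test, 1 mean per group over all 12 libraries, two-sided, Benjamini-Hochberg over 14964 genes, threshold 0.05). The standard error is the log2 fold change divided by the square root of F. The interaction is the gate difference in Bhlhe41Cre minus that in WT. CPM serve comparisons within a gene and TPM those between genes. DESeq2 1.42.0, limma 3.58.1 on log2(TPM + pseudocount of 1 or 0.1), other scalings, other filters, GC and length offsets, a replicate block and leaving out libraries were alternatives. The edgeR fit was tested on simulated data; the other fits were not.

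Same-numbered libraries deviated together between the gates in Bhlhe41Cre (r over genes of residuals 0.23, 0.12 and 0.40), so these numbers pair the samples by the data alone; the block changed no call of the 8 genes there. In the other comparisons the numbers did not pair.

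The genes, lists, ratio pairs and motifs were chosen with earlier results of these data known. Named from each pathway list were up to 4 called genes per comparison with the smallest adjusted p, of which examples are printed, and for each of the 8 genes the 3 most similar profiles (mean of at least 5 CPM). Promoters come from RefSeq tables (GRCm38.p6). Some genes that these rules pick are not reported here.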

Additional observations from a re-analysis of the deposited data

Results flagged for a closer look

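The CCR2low to CCR2hi difference was itself different between Bhlhe41Cre and WT in 6 of the 8 genes, by edgeR's test of the interaction at an adjusted p under 0.05. Of all genes tested, 12.6% were called in the interaction. The log2 interaction was -1.97 for Ccr1, -1.47 for Ccrl2, -2.06 for Cxcr4, -1.14 for Ackr3, -0.95 for Cxcl12 and -0.86 for Cxcl16. On the macrophage scale none of these 6 passed the threshold, with values of -0.52, -0.18, -0.90, 0.25, 0.35 and 0.40 in the same order. On that scale 41.7% of all genes were called in the interaction, and the median over all genes was 1.14. The macrophage share of counts, on which that scale rests, was 3.31% and 0.967% in the CCR2low and CCR2hi libraries of Bhlhe41Cre, against 3.63% and 0.440% in those of WT, and its part in the interactions was not tested.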

How the results depend on the processing

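All alternatives listed at the outset ran, and 1 was added after seeing the data (without both Bhlhe41Cre libraries numbered 3). Genes called numbered 8949 between gates in WT, 8094 between gates in Bhlhe41Cre, 6441 between genotypes in CCR2low, 4808 between genotypes in CCR2hi and 1884 in the interaction. Macrophage scaling gave 14357, 13580, 2202, 11116 and 6234, and leaving out 1 library gave 7901 to 9333, 7095 to 8362, 4657 to 6524, 3260 to 5543 and 871 to 2801. Limma-trend called 1091 (pseudocount 1) and 870 (0.1) in the interaction. The share of calls that were higher was 49.8, 46.1, 38.0, 50.4 and 37.7%, against 0.752, 0.501, 45.1, 2.07 and 98.2% on the macrophage scale; library-size scaling gave 32.0% between gates in Bhlhe41Cre, 61.8% between genotypes in CCR2hi and 19.5% in the interaction, and GC and length offsets gave 58.3% between gates in Bhlhe41Cre, 49.9% between genotypes in CCR2low and 49.9% in the interaction.

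Of 40 log2 fold changes of the 8 genes, the macrophage scale changed 19 calls and 18 signs, GC and length offsets 4 and 1, DESeq2 0 and 1, and library-size scaling 1 and 1. On the macrophage scale the reversed values between gates in WT were -1.30 (Ccr1), -0.63 (Ccrl2), -1.17 (Cx3cr1) and -1.01 (Cxcl16); between gates in Bhlhe41Cre, -1.82 (Ccr1), -0.81 (Ccrl2), -0.29 (Cx3cr1), -0.81 (Cxcr4) and -0.62 (Cxcl16); between genotypes in CCR2hi, -0.84 (Ccr2), -0.25 (Ccrl2), -0.62 (Cxcr4), -1.18 (Ackr3) and -0.84 (Cxcl16); and in the interaction, 0.88 (Cx3cr1), 0.25 (Ackr3), 0.35 (Cxcl12) and 0.40 (Cxcl16). Other reversals were of values that missed the threshold. Ccr2 between gates in Bhlhe41Cre was 0.04 with DESeq2, 0.14 with no filter, and from -0.18 to 0.14 with 1 library left out, above 0 without Bhlhe41Cre CCR2low replicate 1 (0.03) or 2 (0.14) or CCR2hi replicate 3 (0.10); between genotypes in CCR2hi it ran from -0.02 (without WT CCR2hi replicate 1) to 0.49. Ccr1 between gates in Bhlhe41Cre was -0.03 with library-size scaling and -0.08 and -0.09 with limma-trend. Ackr3 between genotypes in CCR2hi was -0.07 with either limma-trend fit, -0.01 with GC and length offsets, and from -0.05 to 0.20 with 1 library left out, below or at 0 without Bhlhe41Cre CCR2hi replicate 1 (-0.05) or WT CCR2hi replicate 2 (-0.00). The Cx3cr1 interaction ran from -0.50 to 0.30 with 1 library left out, and was 0.12 and 0.30 without Bhlhe41Cre CCR2hi replicate 3 or WT CCR2hi replicate 1. The cause of these reversals was not tested.

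The ratios to macrophage transcripts depended on the denominator. With Ptprc the log2 ratio between gates in WT was 0.71 for Ccr1, 1.10 for Ccrl2, 0.58 for Cx3cr1 and 0.76 for Cxcl16, and in Bhlhe41Cre 0.38 for Cx3cr1 and 0.07 for Cxcl16; with Itgam it was 0.08 for Cx3cr1 in Bhlhe41Cre, and with Csf1r 0.18 for Cxcr4 between genotypes in CCR2hi, all of the other sign than with the 17-gene mean.

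With the replicate block, genes called numbered 9052, 8244, 6099, 4473 and 2156 in the 5 comparisons, and 1 of the 40 results changed its call, Ccrl2 between genotypes in CCR2low (-0.56, edgeR adjusted p = 0.0303). Replicate numbers in the other pairings are only a shared number. Without both Bhlhe41Cre libraries numbered 3, that Ccrl2 difference passed the threshold (-0.65, adjusted p = 0.00785) and the Cxcl12 interaction did not (-0.79, adjusted p = 0.0738).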
